A study of Mus musculus with 12 samples.

Results

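HiChIP with an antibody against FGFR1 was compared with HiChIP with an antibody against CTCF in mouse embryonic stem cells (ESC) of the line E14Tg2A, kept in gelatin-coated culture with 100 U/mL leukemia inhibitory factor. HiChIP ligates DNA ends that lie close together in fixed nuclei and then pulls down, with an antibody, the fragments that carry a protein of interest, so each read pair reports a contact between a pair of loci. The comparison rests on 4 of the 12 samples of the study, 2 biological replicates per antibody, and the replicates were merged in the deposited tables. Each antibody is therefore 1 pooled table with no error between replicates. Hi-C of the same ESC, which uses no antibody, served as a reference, and the same pair of antibodies in neuronal committed cells (NCC, the same line after 1 μM retinoic acid for 48 h without leukemia inhibitory factor) served as a second measurement of the same contrast.

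FGFR1 is a receptor tyrosine kinase for fibroblast growth factors, and a full-length nuclear form (nFGFR1) associates with chromatin and with transcriptional coregulators. CTCF is a zinc-finger protein that binds a defined DNA motif and, together with the ring-shaped cohesin complex, holds the bases of chromatin loops, preferentially between sites that point toward each other. The question addressed was where in the ESC genome the contacts pulled down with these antibodies start and end, and where one antibody was favored over the other.

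On the 19 autosomes the FGFR1 table held 2645713 read pairs between 200749 interaction anchors, and the CTCF table held 1210721 read pairs between 167001 anchors. The anchors are the segments that the authors' software called from the reads of each table separately, and read pairs outside them are not listed. FGFR1 anchors had a median length of 2330 bp and covered 23.1% of the autosomes, while CTCF anchors had a median of 2216 bp and covered 17.6%. All anchors started and ended at GATC, the cut site of the assay, in the mm10 assembly. Because FGFR1 HiChIP was 2.19 times as deep, FGFR1 read pairs were scaled to the CTCF total of the same cell type in each comparison of levels. All tests below compare 2 pooled tables and not the antibodies in general, and all intervals cover counting error only. No expression was measured here, so the cell type could not be checked against marker genes. The CTCF label was checked against the CTCF motif, as described below.

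Many FGFR1 anchors lay on CTCF anchors, and more anchors of either table lay on anchors of Hi-C, which uses no antibody. An overlap of 1 bp or more was found for 103826 FGFR1 anchors, which is 51.7% of them (95% Wilson interval 51.5 to 51.9%), and for 104872 CTCF anchors, which is 62.8% (62.6 to 63.0%). An anchor of ESC Hi-C, whose anchors cover 37.3% of the autosomes, was overlapped by 78.3% of FGFR1 and 79.8% of CTCF anchors. CTCF anchors cover less of the autosomes (17.6%), so the overlaps with CTCF and with Hi-C anchors cannot be compared directly. Whether the overlap of FGFR1 with CTCF anchors reflects joint binding was not tested. The anchors shared by FGFR1 and CTCF were the stronger ones. They held 62.6% of the FGFR1 read-pair ends and 71.8% of the CTCF ends. The interaction anchor strength, counted as ends of read pairs that fall in an anchor, had a median of 26 in shared and 18 in unshared FGFR1 anchors, and of 13 and 9 in shared and unshared CTCF anchors. Shared anchors were also longer, with a median of 2586 against 2139 bp for FGFR1 and of 2372 against 2016 bp for CTCF, and per kilobase they still held more ends (10.0 against 8.25 for FGFR1, 5.93 against 4.87 for CTCF).

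Sharing rose with interaction anchor strength in every step. Of the FGFR1 anchors with 1 to 10 ends, 28.3% overlapped a CTCF anchor, against 83.9% of those with 50 ends or more. For CTCF anchors the share went from 44.4% at 1 to 5 ends to 87.7% at 28 ends or more. Across autosomes the FGFR1 share ran from 47.6% on chromosome 14 to 56.9% on chromosome 11, and the CTCF share from 59.5% to 66.3% on the same chromosomes. Which anchors a table lists thus moved with the depth at the locus, and the part of depth and length in the sharing was not tested separately.

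**Figure D1:**
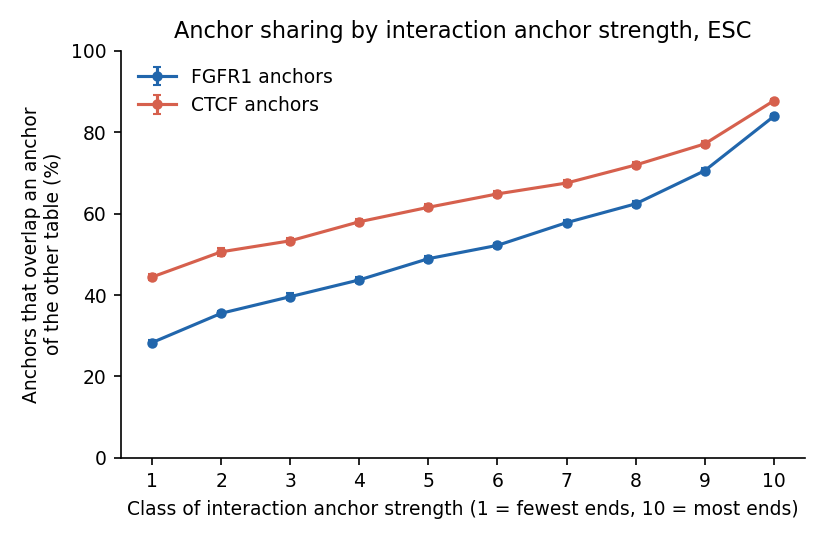
Percent of FGFR1 anchors (blue) and CTCF anchors (red) in ESC that overlap an anchor of the other table by 1 bp or more, in 10 classes of interaction anchor strength from the fewest to the most ends (bars: 95% Wilson intervals, mostly smaller than the points). Sharing rises from 28.3% to 83.9% for FGFR1 and from 44.4% to 87.7% for CTCF.

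Shared anchors carried more gene starts, CpG islands and CTCF motifs than unshared ones in both tables. A start site of a protein-coding gene lay in 6.97% of shared and 2.22% of unshared FGFR1 anchors, and in 6.52% and 1.86% of the CTCF anchors. CpG islands, the GC-rich stretches at many promoters, lay in 6.01% and 1.55% of FGFR1 anchors and in 5.60% and 1.17% of CTCF anchors. The CTCF core consensus, searched on both strands as a match of 12 bases to the core of the motif, was found at 12245 places on the autosomes. It lay in 3.43% of shared FGFR1 anchors and in 3.32% of shared CTCF anchors. In unshared anchors it was found in 1.11% for FGFR1 and in 1.46% for CTCF. Unshared FGFR1 anchors overlapped FGFR1 anchors of NCC in 54.4% and CTCF anchors of NCC in 37.5% of cases, and unshared CTCF anchors overlapped them in 48.6% and 33.4%. In both classes the higher number belonged to the NCC FGFR1 table, whose anchors cover more of the genome (27.2% against 17.9%).

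Read pairs that joined anchors in both tables made up less of the FGFR1 contacts. Both ends lay in shared anchors for 44.2% of FGFR1 and 57.5% of CTCF read pairs, and neither end did for 19.1% and 13.9%. For contacts of 1 mb or more the numbers were 36.2% and 48.5% with both ends shared. Repeated contacts were shared more often. Among interactions over 20 kb, both anchors were shared for 37.2% of all FGFR1 interactions and for 74.7% of those with 5 or more read pairs, and for 49.97% and 84.8% of the CTCF interactions.

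At the places where both tables list the same segment, the antibodies gave similar counts, and the anchors past the test all lay on the CTCF side. Anchors with identical start and end in both tables numbered 31710 (15.8% of FGFR1 and 18.99% of CTCF anchors), and this set was defined after the bins described further below had been seen. At such an anchor the same cut sites and the same sequence are counted with both antibodies. Read pairs at these anchors correlated between the tables with a Spearman rho of 0.75 across anchors, which are not independent replicates. A two-sided exact binomial test of the read pairs at each anchor against the ratio of the table totals was adjusted over the 25912 anchors with at least 20 read pairs in both tables together (Benjamini-Hochberg). An anchor was called when the adjusted p was under 0.05 and the scaled counts differed 2-fold or more. By this test 65 anchors favored CTCF (0.251% of those tested) and 0 favored FGFR1 (0%). With an unadjusted p under 0.05, 111 anchors were 2-fold or more higher in FGFR1.

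The median log2 ratio of FGFR1 over CTCF at these anchors was -0.25, with 5% of anchors below -1.13 and 5% above 0.72. Setting this median to 0 left 21 anchors on the CTCF side, all of them among the 65, and gave 1 on the FGFR1 side, an anchor in no protein-coding gene at chr15:81218965-81221257. It held 62 FGFR1 read pairs (28.4 scaled) and 9 CTCF read pairs. The variance of the counts around the median ratio was 1.18 times that of binomial sampling. Depth limited what could be called. A 4-fold excess would pass the test at 51.9% of the anchors if it lay on the CTCF side and at 11.1% if it lay on the FGFR1 side, and a 2-fold excess at 0.637% and 0.116%.

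**Figure D2:**
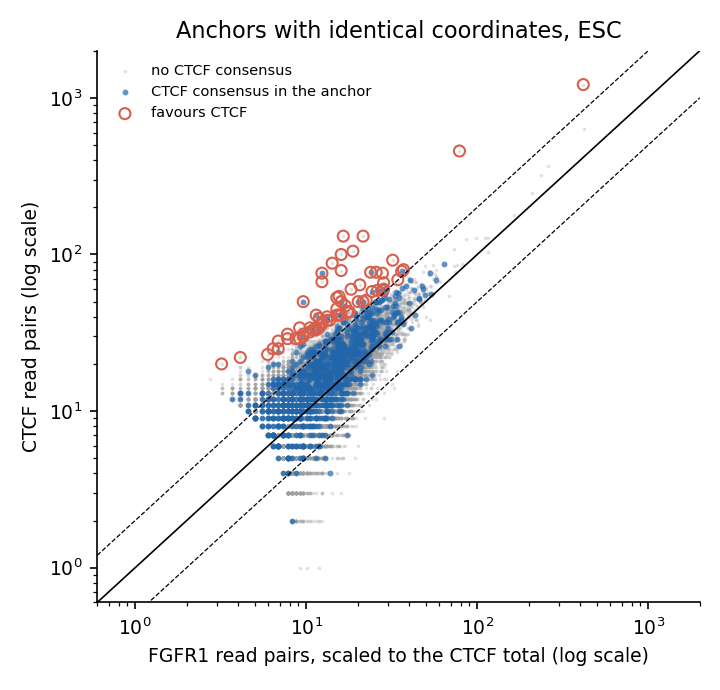
Read pairs at 25912 anchors with identical coordinates in both ESC tables, CTCF (y axis) against FGFR1 scaled to the CTCF total (x axis), both on log scales, with the line of equality and dashed lines at 2-fold. Blue points hold the CTCF core consensus, and red circles mark the 65 anchors that favor CTCF, which all lie above the upper dashed line.

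The CTCF-favored anchors were rich in the CTCF motif. The core consensus lay in 21 of the 65 anchors (32.3%, 95% Wilson interval 22.2 to 44.4%), against 4.03% of the 25912 anchors tested. Allowing 1 mismatch, a match was present in 48 of the 65 (73.8%) and in 28.3% of all tested. The anchors that favored CTCF had a median length of 2538 bp and a median GC content of 48.7%, against 2326 bp and 44.3% for all tested. With the median ratio set to 0, 5 of the 21 remaining anchors held the consensus (23.8%). The sites below are shown because they lie inside anchors where the CTCF pulldown exceeded the FGFR1 pulldown. They were read from the GRCm38 reference (mm10), 5′ to 3′ on the strand of the motif, with the consensus match in capitals and 9 flanking bases on each side.
Top1mt, chr15:75679452-75679481, minus strand: tggccgtgtCCAGCAGGGGGCccactagcc
Tmem121 side, site 1, chr12:113220044-113220073, plus strand: tgcatctagCCACCAGGGGGCacatgagct
Tmem121 side, site 2, chr12:113221399-113221428, plus strand: tgcatctgtCCACCAGGGGGCacctgagca
Nfasc, chr1:132609234-132609263, minus strand: ccccgcttaCCAGTAGAGGGCaggtctggc
1500009C09Rik, chr15:82259700-82259729, minus strand: gatcacggtCCACCAGGGGGCgctgcatgc
Sh3pxd2a site 1, chr19:47356519-47356548, plus strand: ttcctgtgcCCACCAGATGGCgcccatcct
Sh3pxd2a site 2, chr19:47356746-47356775, plus strand: tcagtcttaCCACCAGGTGGCgaaagatac
Nr6a1, chr2:38927293-38927322, plus strand: ctcccgctgCCACCAGGTGGCgcgcggcca
Il5 side, site 1, chr11:53737296-53737325, minus strand: acatatcagCCACCAGGGGGCggtgttgga
Il5 side, site 2, chr11:53737786-53737815, plus strand: tacaacatgCCACTAGAGGGCaccatgtcg

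The Top1mt site lay 0.7 kb from the gene, which encodes the mitochondrial DNA topoisomerase, inside an anchor that also holds its start site. That anchor (chr15:75677082-75680626) held 27 FGFR1 read pairs, 12.4 after scaling, and 76 CTCF read pairs, a 6.15-fold excess of CTCF (adjusted p = 8.2e-15, exact binomial test). In NCC it held 31 FGFR1 read pairs (10.2 scaled to the NCC CTCF total) and 99 CTCF read pairs. CTCF was thus the higher of the pair in both cell types.

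The 2 sites at chr12:113220044-113221428 lay in 1 anchor between genes, with Tmem121 as the nearest protein-coding gene at 29.3 kb from the anchor, and pointed the same way. The anchor held 21 FGFR1 read pairs (9.61 scaled) and 50 CTCF read pairs, 5.203-fold more (adjusted p = 7.4e-08, exact binomial test), and Hi-C gave 13.6 at the same scale. In NCC it held 27 FGFR1 (8.92 scaled) and 41 CTCF read pairs. Nfasc encodes neurofascin, a cell adhesion protein of axons, and its site lay in an intron. Its anchor held 25 FGFR1 (11.4 scaled) and 41 CTCF read pairs, 3.58-fold more (adjusted p = 0.000614, exact binomial test), and 25 (8.26 scaled) and 26 in NCC. The anchor of 1500009C09Rik, whose site lay in an exon, held 52 FGFR1 (23.8 scaled) and 77 CTCF read pairs in ESC and 29 (9.58 scaled) and 68 in NCC. The 2 sites in an intron of Sh3pxd2a, a scaffold gene of podosomes, also pointed the same way, while the 2 sites 12.2 and 12.7 kb from Il5 pointed away from each other. The site of Nr6a1, an orphan nuclear receptor, lay in an intron, in an anchor that holds a start site of the gene and favored CTCF 2.39-fold. The Sh3pxd2a anchor favored CTCF 3.01-fold and the anchor near Il5, which codes for a cytokine, 2.16-fold.

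Most of the largest CTCF excesses lay in anchors with no exact match to the consensus. An anchor in Ncs1, the gene of a neuronal calcium sensor, at chr2:31290198-31293569 held 36 FGFR1 read pairs (16.5 scaled) and 131 CTCF read pairs, 7.95-fold more (adjusted p = 1.5e-31, exact binomial test). In NCC the same anchor held 26 FGFR1 (8.59 scaled) and 119 CTCF read pairs. The anchor at the start of Nipsnap2 held 31 FGFR1 (14.2 scaled) and 88 CTCF read pairs in ESC, and 31 (10.2 scaled) and 105 in NCC. The anchor at a start site of Rapgef1, a guanine nucleotide exchange factor, held 47 (21.5 scaled) and 131 in ESC. The anchors of Nipsnap2 and Ncs1 each held 1 match with at most 1 mismatch, and that of Rapgef1 held 3. Introns of C1qtnf9 and Cfap57 followed, with 41 (18.8 scaled) against 105 read pairs and 27 (12.4 scaled) against 67. Among the 65, with or without the consensus, were also anchors at the start sites of Myod1, a master regulator of muscle (2.99-fold), of Stra8, a gene of entry into meiosis (3.005-fold), and of Fzd8, a Wnt receptor, whose anchor holds 1 consensus site (2.86-fold).

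In all, 33 of the 65 anchors touched an exon of a protein-coding gene, 11 lay in introns and 21 between genes. A start site lay in 16 of them (24.6%), against 8.30% of all tested. The fold in favor of CTCF ran from 2.01 to 7.95 with a median of 3.04. The anchor just inside the 2-fold threshold, in Gm960, held 75 FGFR1 (34.3 scaled) and 69 CTCF read pairs. The nearest anchor outside it that also had an adjusted p under 0.05, in Sfi1 and Drg1, held 924 (422.8 scaled) and 630, a 1.49-fold difference. Where an identical Hi-C anchor existed (23 of the 65), the summed CTCF read pairs exceeded Hi-C by 2.07 on the log2 scale and the FGFR1 read pairs by 0.35, against 1.04 and 0.74 over the 7650 tested anchors that Hi-C also lists. Without 4 anchors that mostly reached other chromosomes, described below, the values were 1.66 and 0.03 (19 anchors). The same CTCF and FGFR1 counts had chosen these anchors, so the order of the values was fixed by the choice and is no separate support.

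The excess of CTCF was present in NCC as well. Of the 65 anchors, 27 had the same coordinates in both NCC tables, and CTCF was higher in 27 of 27 after scaling. Of all tested anchors with the same coordinates in NCC (4454), CTCF was higher in 84.3%. A difference of 2-fold or more was seen in 20 of the 27 (74.1%) and in 22.1% of all. The fold in NCC ran from 1.15 to 13.9 with a median of 3.38. Called independently in NCC with the same rule, 781 of 25934 identical anchors favored CTCF and 1 favored FGFR1, and 16.1% of the 781 held the consensus against 3.69% of those tested. The NCC median ratio lay further from 0 (-0.51), and with it set to 0 the NCC counts were 51 and 2, with the consensus in 35.3% of the 51.

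**Figure D3:**
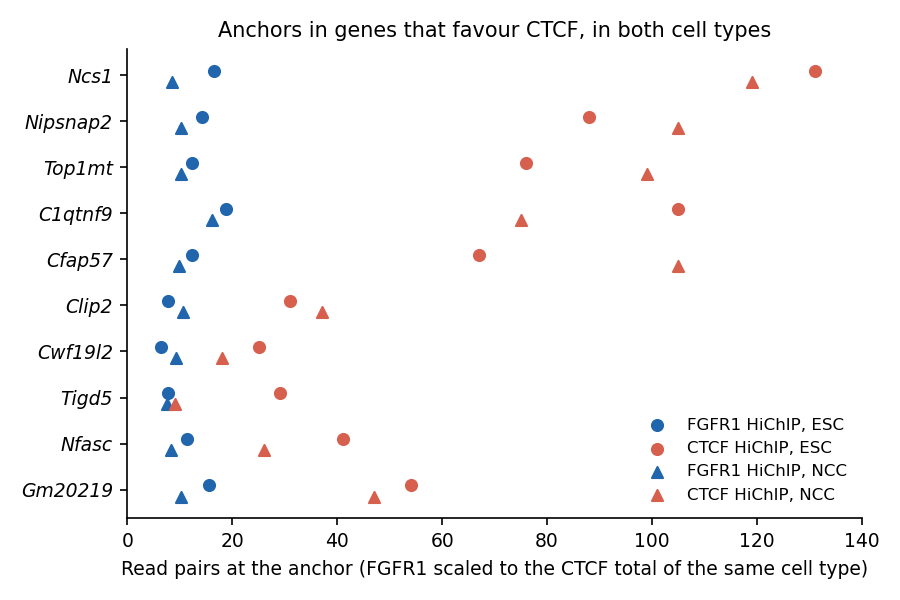
Read pairs at 10 anchors inside genes that favor CTCF in ESC and have the same coordinates in all 4 HiChIP tables, without those that mostly reach other chromosomes, ordered from the largest fold in ESC (circles: ESC, triangles: NCC; blue: FGFR1 scaled to the CTCF total of the same cell type, red: CTCF). Each red symbol lies to the right of the blue symbol of the same shape, from Ncs1 (16.5 and 131 in ESC) down to Gm20219.

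In 4 of the 65 anchors most of the FGFR1 read pairs went to other chromosomes. These were the anchor of Gm10801 and Gm10800 on chromosome 2 (911 FGFR1 read pairs, 416.9 scaled, and 1216 CTCF), an exonic anchor of Chl1 (172, 78.7 scaled, and 458), a 25608 bp anchor across Gm10721 and its neighbors on chromosome 9 (35, 16.0 scaled, and 100) and an anchor in Mpdz (38, 17.4 scaled, and 43). None of them held the consensus. Without them 61 anchors remained, of which 21 held the consensus (34.4%), and CTCF was higher in NCC in 23 of 23.

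The shift toward CTCF at the motif was not limited to the called anchors. The 1045 identical anchors with the consensus had a median log2 ratio of FGFR1 over CTCF of -0.42 (quartiles -0.75 and -0.10), and the 24867 without it had -0.24 (quartiles -0.59 and 0.11), so the ranges between the quartiles overlapped widely. The median was lower with the consensus on 19 of 19 autosomes. GC content moved with the ratio too, since anchors without the consensus went from -0.18 to -0.32 between the lowest and the highest of 5 equal classes of GC content. Within each class, from low to high GC content, the anchors with the consensus lay lower, at -0.34, -0.44, -0.37, -0.43 and -0.46. Anchors with a start site had a median of -0.29. In NCC the medians were -0.85 with the consensus (289 anchors) and -0.55 without it (4165 anchors).

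**Figure D4:**
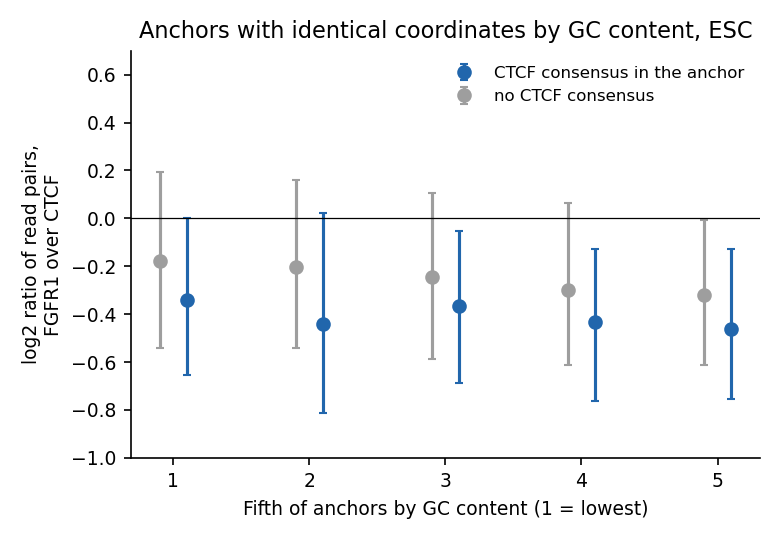
Median log2 ratio of FGFR1 over CTCF read pairs at identical ESC anchors in 5 equal classes of GC content (1 = lowest), with the CTCF core consensus (blue) and without it (grey), bars from the lower to the upper quartile over anchors. The blue median is lower in each class (-0.46 against -0.32 in the highest), while the bars overlap.

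The same direction held over all anchors of each table. Ends in anchors with a consensus site within 1 kb of the midpoint made up 3.08% of CTCF ends (95% Wilson interval 3.05 to 3.10%), 2.14% of FGFR1 ends (2.12 to 2.15%) and 2.23% of Hi-C ends. CTCF over FGFR1 was 0.53 on the log2 scale (0.51 to 0.54), and CTCF was higher on 19 of 19 autosomes. FGFR1 lay below Hi-C by a small margin (-0.06, -0.07 to -0.05), and CTCF lay above it (0.47, 0.45 to 0.48). This checks the CTCF label. When a site was counted anywhere inside the anchor, CTCF remained above FGFR1 (0.29) but both fell below Hi-C, whose anchors are longer (median 2897 bp). In NCC the log2 ratio of CTCF over FGFR1 was 0.87. Ends near start sites of protein-coding genes made up 6.14% of CTCF, 5.53% of FGFR1 and 6.40% of Hi-C ends, and ends near CpG islands 5.49%, 4.999% and 6.23%.

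The share of contacts between sites that point toward each other did not differ between the antibodies beyond counting error. For contacts of 20 kb to 2 mb between anchors that hold sites of 1 orientation only, 719 of 2000 FGFR1 read pairs were convergent (36.0%, 95% Wilson interval 33.9 to 38.1%) and 473 of 1307 CTCF read pairs (36.2%, 33.6 to 38.8%). CTCF minus FGFR1 was 0.24 percentage points (-3.11 to 3.59). In Hi-C the share was 31.7% (31.3 to 32.2%). Divergent pairs, whose sites point away from each other, made up 17.95%, 16.99% and 19.6% in FGFR1, CTCF and Hi-C. Among interactions with 2 or more read pairs the convergent shares were 42.6% for FGFR1, 44.1% for CTCF and 33.1% for Hi-C, and 49.6% and 54.2% for FGFR1 and CTCF in NCC. This minimum is unlike across depths, since in ESC it kept 822 of 2000 FGFR1, 540 of 1307 CTCF and 34282 of 41470 Hi-C read pairs. At 100 kb to 1 mb with the same minimum the ESC shares were 48.5% for FGFR1 (43.5 to 53.6%) and 43.5% for CTCF (37.0 to 50.3%).

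CTCF HiChIP held more contacts within a single anchor, and between different anchors the distance classes differed by at most 0.05 on the log2 scale when all interactions were counted. Pairs inside 1 anchor made up 20.02% of FGFR1 read pairs, 28.3% of CTCF read pairs and 20.8% of Hi-C read pairs, a log2 ratio of FGFR1 over CTCF of -0.50, with CTCF higher on 19 of 19 autosomes. Every other class was correspondingly larger in FGFR1, from 0.11 on the log2 scale at 50 mb or more to 0.20 at 10 to 50 mb. Inter-chromosomal read pairs were 10.8% of FGFR1 (95% Wilson interval 10.8 to 10.9%) and 9.85% of CTCF read pairs (9.80 to 9.91%). Counted among pairs between different anchors, these shares were 13.5% and 13.7%, so that the order was turned, and the ratio of FGFR1 over CTCF lay between -0.05 and 0.05 in each distance class. Among interactions with a score of 2 or more the inter-chromosomal ratio was -0.81. In NCC the difference within anchors was smaller, 17.4% against 20.4%.

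**Figure D5:**
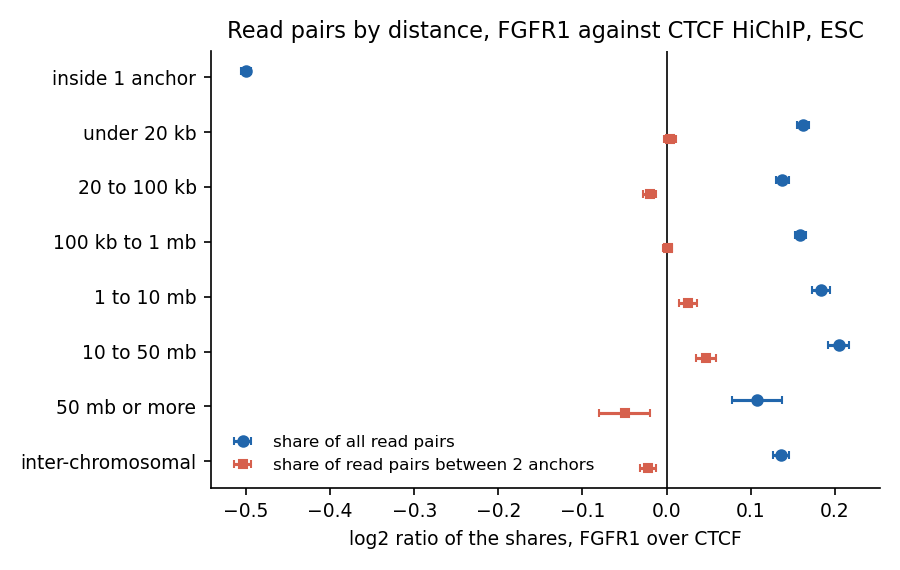
Log2 ratio of FGFR1 over CTCF shares of ESC read pairs by distance class, as a share of all read pairs (blue circles) and as a share of read pairs between 2 different anchors (red squares), with 95% counting intervals. Pairs inside 1 anchor lie at -0.50 and the blue points at 0.11 to 0.20, whereas the red points lie close to 0.

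Of the 5 shared anchors with the most ends in each table, 4 were the same for both antibodies. The anchor with the most ends in both tables, at chr17:39842463-39849607 in FGFR1, held 4366 FGFR1 ends (1998 scaled) and 2224 CTCF ends, lay on Gm26917, CT010467.1, Gm42418 and AY036118, none of them protein-coding, and sent 48.8% of its FGFR1 read pairs to other chromosomes. Anchors in Sfi1 and Drg1 on chromosome 11 followed with 1274 FGFR1 (583 scaled) and 915 CTCF ends. The anchor of Gm10801 and Gm10800, in a bin with 58% masked repeats, held 953 (436.1 scaled) and 1409. Of the 5 interactions over 20 kb with the most read pairs in each table, that between Zc3h7a and Kpna1, 24837168 bp apart on chromosome 16, was in both lists, with 21 FGFR1 (9.61 scaled) and 9 CTCF read pairs. The interaction with the most FGFR1 read pairs, 35 (16.0 scaled) over 21699 bp on chromosome 11, had 1 anchor in St6galnac1. The CTCF table held 28 read pairs between the anchors that overlap its anchors, summed over 2 interactions. Between Psen2 and Itpkb, each anchor with 1 consensus site, 15 FGFR1 (6.86 scaled) and 6 CTCF read pairs were found, the latter in 2 interactions. Between Psmd12 and Helz, also with 1 site at each anchor, there were 7 FGFR1 (3.20 scaled) and 9 CTCF read pairs, and for an interaction of Tekt1 2 (0.915 scaled) and 10. Each of these interactions was chosen for a high count in one of the tables.

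In bins of equal size the tables differed more often, and many FGFR1-favored 10 kb bins held no midpoint of a CTCF anchor. Of 123272 bins of 10 kb with at least 20 read pairs in both tables together, 33424 favored FGFR1 (27.1%) and 15052 favored CTCF (12.2%) by the exact binomial test with an adjusted p under 0.05 and 2-fold or more. Of the FGFR1-favored bins, 24071 (72.0%) held no midpoint of a CTCF anchor, and into 6111 of these a CTCF anchor reached from a neighboring bin. Of the CTCF-favored bins, 3538 (23.5%) held no midpoint of an FGFR1 anchor. No read pair can be listed in such a bin, so no fold is given there. Among the 95663 bins with anchors of both tables, 9353 favored FGFR1 (9.78%) and 11514 CTCF, so that the order was turned. With the FGFR1 table thinned at random to the CTCF total, 11653 bins favored FGFR1 and 11501 favored CTCF. In 100 kb bins 2766 of 23011 favored FGFR1 (12%) and 1223 favored CTCF (5.31%). A paired t test over the 10 kb bins in each 100 kb bin, with Benjamini-Hochberg adjustment, called 0 and 0 (1274 and 402 at an unadjusted p under 0.05). It counted 10 kb bins with no listed read pair as 0. The study's own paired test differed, as it compared ESC with NCC over interaction values between pairs of bins. Read pairs of FGFR1 and CTCF correlated with a Spearman rho of 0.40 over 222152 bins of 10 kb and of 0.82 over 23669 bins of 100 kb, and each table correlated with Hi-C at 0.43 to 0.45 and at 0.84 to 0.85.

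The 10 kb bins with the most FGFR1 read pairs and no midpoint of a CTCF anchor overlapped genes of varied function or no gene. A bin at chr15:77890001-77900000 held 204 FGFR1 read pairs (93.4 scaled), 1194 Hi-C read pairs and 130 FGFR1 (42.9 scaled) and 15 CTCF read pairs in NCC. Bins in Pitpna, a phosphatidylinositol transfer protein (163 FGFR1 read pairs), Setd1b, a histone H3 methyltransferase (160), Cfdp1 (151), a bin of chromosome 11 in no protein-coding gene (151), Fntb, a farnesyltransferase subunit (150), Dnah8 (149) and Crb2 (145) followed. A CTCF anchor reached in from a neighboring bin in each of these except Fntb and the bin of chromosome 11. In NCC the order was turned at Setd1b (28.4 scaled FGFR1 and 67 CTCF read pairs), Cfdp1 (20.5 and 53), Fntb (14.5 and 20) and Crb2 (36.7 and 41). Dnah8 had 33 CTCF read pairs in NCC and no FGFR1 read pair listed. FGFR1 was the higher in NCC in the bin of chromosome 11 (44.6 scaled and 34). Pitpna had 17.8 scaled FGFR1 read pairs in NCC and no CTCF read pair listed. On the CTCF side a bin at chr9:82670001-82680000 held 112 CTCF read pairs, a bin of Rab11fip3 with 2 consensus sites 106 and a bin of Gm12216 104, all without a midpoint of an FGFR1 anchor. An FGFR1 anchor reached into each of these bins from beside it. In NCC the chromosome 9 bin held 252 FGFR1 (83.2 scaled) and 101 CTCF read pairs. The Rab11fip3 and Gm12216 bins held 112 and 11 CTCF read pairs in NCC, with no FGFR1 read pair listed. With anchors of both tables, Lasp1 held 15 FGFR1 read pairs (6.86 scaled) and 90 CTCF read pairs, and Il17rd, an inhibitor of FGF signaling, held 19 (8.69 scaled) and 87. In NCC the order was turned at Lasp1, with 65.7 scaled FGFR1 and 30 CTCF read pairs, and kept at Il17rd, with 5.61 and 22. A bin of Snai3 held 26 FGFR1 (11.9 scaled) and 100 CTCF read pairs, and 105 (34.7 scaled) and 19 in NCC, where FGFR1 was the higher. Bins of Tbx4 and Ubn1, which also favored CTCF in ESC, turned to FGFR1 in NCC. They held 32.4 scaled FGFR1 and 22 CTCF read pairs, and 41.9 and 21.

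In 100 kb bins the largest FGFR1 count without a CTCF anchor was 183 read pairs at chr4:18500001-18600000, in a bin with 0 CTCF consensus sites and 357 Hi-C read pairs, and NCC gave 122 FGFR1 (40.3 scaled) and 18 CTCF read pairs there. On the CTCF side, the bin at chr5:56200001-56300000 held 29 FGFR1 (13.3 scaled) and 72 CTCF read pairs, and in NCC the order was turned, with 40.6 scaled FGFR1 and 6 CTCF read pairs.

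The direction of the 10 kb bins was scarcely carried to NCC. Among FGFR1-favored bins measured with both antibodies in NCC (18459), FGFR1 was higher in NCC in 43.1%, against 40.6% of all tested bins. Among CTCF-favored bins (9531), CTCF was higher in 61.7%, against 59.4%. In 100 kb bins FGFR1 was higher in NCC in 64.1% of FGFR1-favored and in 54.8% of all bins, and CTCF was higher in 39.7% of CTCF-favored and in 45.2% of all bins. The 100 kb bins that favored either antibody were the thinly covered ones, with a median of 383 and 408 Hi-C read pairs against 1094 over all tested, a GC content of 38.9% and 39.3% against 41.6%, and start sites in 23.8% and 32.0% against 42.2%. The part of depth in these calls was not tested. In 10 kb bins the consensus lay in 8.32% of CTCF-favored, 5.04% of FGFR1-favored and 6.48% of all bins, and start sites in 13.1%, 8.33% and 10.8%.

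Gene starts were followed through the 10 kb bin that holds them. Of 15193 protein-coding genes with a tested bin, 3125 favored FGFR1 (20.6%) and 2247 favored CTCF (14.8%). Among the 12789 with anchors of both tables the order was turned, with 1154 and 1814. The clustered protocadherins, neuronal adhesion genes whose promoters are known CTCF targets, stood on the CTCF side. Of 46 tested genes in 32 bins, 19 favored CTCF and 6 favored FGFR1. With anchors of both tables the counts were 14 and 2 of 37, and the median log2 ratio of FGFR1 over CTCF was -0.96, against -0.15 over all genes with anchors of both tables. The bin of Pcdhgc3 held 41 FGFR1 (18.8 scaled) and 85 CTCF read pairs, and that of Pcdha4 held 25 (11.4 scaled) and 31. Pcdhb15 and Pcdhb16, which share a bin with 51 FGFR1 (23.3 scaled) and 8 CTCF read pairs, stood on the FGFR1 side. In NCC CTCF was higher for 17 of the 17 CTCF-favored protocadherins with values from both antibodies, against 1143 of 1673 among all CTCF-favored genes, and FGFR1 was higher for 0 of 4 FGFR1-favored ones. Of all 36 protocadherins with such values, FGFR1 was higher in NCC for 2 (5.56%), against 33.2% over all genes. The NCC direction thus held for nearly the whole list, whichever antibody was favored in ESC. Genes that share a bin were counted separately.

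Among pluripotency genes more favored FGFR1 in ESC. Of 32 tested, 11 favored FGFR1 (34.4%) and 2 favored CTCF (6.25%), against 20.6% and 14.8% of all tested genes. With anchors of both tables the counts were 6 and 2 of 27, and the median log2 ratio of these 27 was 0.46, against -0.15 over all such genes. The bin of Utf1, a chromatin protein of undifferentiated cells, held 89 FGFR1 read pairs (40.7 scaled) and 5 CTCF read pairs, that of Il6st, the shared receptor subunit for LIF, held 110 (50.3 scaled) and 14, and that of the transcription factor Sox2 held 59 (27.0 scaled) and 12. Gdf3, a TGF-beta family ligand, held 48 (22.0 scaled) and 8. Klf4 and Fbxo15 favored CTCF, with 24 (10.98 scaled) against 28 and 16 (7.32 scaled) against 34 read pairs. Jarid2, Klf5, Lifr and Myc had 30, 51, 33 and 35 FGFR1 read pairs and no midpoint of a CTCF anchor. In NCC FGFR1 was higher for 4 of the 10 FGFR1-favored pluripotency genes with values from both antibodies, against 764 of 2060 among all FGFR1-favored genes.

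Few genes of FGF signaling favored FGFR1 HiChIP, and with anchors of both tables their median ratio lay close to that of all genes. The counts are small. Over all genes only 1154 of the 3125 FGFR1-favored starts had anchors of both tables. Of 33 tested, 1 favored FGFR1 (3.03%) and 6 favored CTCF (18.2%), against 20.6% and 14.8% of all tested genes. With anchors of both tables the counts were 1 and 4 of 31, against 1154 and 1814 of 12789 over all genes. The median log2 ratio of these 31 was -0.23, against -0.15 over all genes with anchors of both tables. The start of Fgfr1 itself held 34 FGFR1 (15.6 scaled) and 46 CTCF read pairs, 2.96-fold in favor of CTCF (adjusted p = 2.2e-05, exact binomial test). Fgf15, a secreted ligand, held 33 (15.1 scaled) and 50, Sos1, which activates Ras, 21 (9.61 scaled) and 29, and Rps6ka2, a kinase below ERK, 19 (8.69 scaled) and 24. The receptor gene Fgfr2 and the inhibitor Spry4 held 20 and 37 CTCF read pairs and no midpoint of an FGFR1 anchor.

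In several other lists, as over all genes, the order of the antibodies depended on the bins without anchors of both tables. Among 56 Polycomb-type developmental regulators 17 favored FGFR1 (30.4%) and 7 CTCF (12.5%), and 7 and 6 of the 45 with anchors of both tables. Tbx4 (25 FGFR1 read pairs, 11.4 scaled, and 88 CTCF) and Foxd3 (87, 39.8 scaled, and 12) stood at opposite sides. In NCC FGFR1 was higher for 1 of 11 Polycomb-type regulators on the FGFR1 side, against 764 of 2060 among all FGFR1-favored genes. Over the 41 of the list with NCC values from both antibodies it was higher for 31.7%, against 33.2% over all genes. For 48 neural transcription factors the counts were 14 and 10 (29.2% and 20.8%), and 7 and 7 of 38 with anchors of both tables. Among them were Irx3 (98, 44.8 scaled, and 9) and Irx5 (13, 5.95 scaled, and 27), which stand in 1 gene cluster. Hox genes gave 7 and 3 of 34 in 28 bins (20.6% and 8.82%), and 4 and 3 of 31 with anchors of both tables. Hoxc12 (85, 38.9 scaled, and 12) lay on the FGFR1 side and Hoxa9 (35, 16.0 scaled, and 38) on the CTCF side. Genes of CTCF and cohesin gave 4 and 2 of 22 (18.2% and 9.09%), and 2 and 1 of 19 with anchors of both tables. Imprinted genes gave 7 and 2 of 23 (30.4% and 8.70%), and 2 and 1 of 17 with anchors of both tables. Immune genes gave 6 and 2 of 19 (31.6% and 10.5%), and 3 and 2 of 16 with anchors of both tables, with a median log2 ratio of 0.33. With anchors of both tables the order was turned over all genes, from 3125 and 2247 of 15193 to 1154 and 1814 of 12789. The same turn was seen for ribosomal protein genes, from 16 and 9 of 69 to 6 and 8 of 58. Histone genes went from 11 and 9 of 55 in 32 bins to 6 and 8 of 49. Olfactory receptor genes went from 109 and 43 of 367 to 23 and 33 of 271. In the Polycomb-type, Hox, CTCF and cohesin, imprinted and immune lists the FGFR1 count stayed the higher, by few genes. Rpl13 held 28 (12.8 scaled) and 88 read pairs. The start of Esco1, an acetyltransferase of cohesin, held 59 (27.0 scaled) and 6, and that of Stag1, a cohesin subunit, held 49 CTCF read pairs and no midpoint of an FGFR1 anchor.

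The FGFR1-favored gene starts with the most FGFR1 read pairs and 0 CTCF read pairs, those of Setd1b, Atxn7l3, Prdm12, Prr7, Hoxb5, Dlx1, Adrb3, Utp11, Wnt10b, Ddx19a, Klhl23 and Itgb4, lay in bins of 116 to 160 FGFR1 read pairs with no midpoint of a CTCF anchor, so they have no fold and were tested through FGFR1 alone. Among gene starts with at least 100 read pairs in both tables together, the CTCF excess with anchors of both tables was largest at Tbx4 (7.69-fold). Ubn1 (7.65-fold), Col1a1, a chain of type I collagen (7.56-fold), Lrtm2 (7.26-fold), Rpl13 (6.87-fold) and Mrpl12 (6.64-fold) followed. Next came Gm10717 and Gm10718 (6.24-fold) and Nipsnap2 (6.20-fold).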

How the data were processed

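Per the labels and the methods of the study, fixed cells were processed for Hi-C or HiChIP, valid pairs were selected with HiC-Pro on mm10 and assigned to anchors with hichipper for each sample, all ligation types included, and the 2 replicates of each group are in 1 table. The deposited score is the count of read pairs per pair of anchors, and these counts were used as deposited. The aligner version was not given in the sources used here. The NCC Hi-C table was not used here.

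Read pairs on chromosomes 1 to 19 were kept (98.8% in both ESC HiChIP tables). Anchors were placed in bins at their midpoint, and each read pair was counted once per bin. Bins and anchors with at least 20 read pairs were tested by a two-sided exact binomial test with Benjamini-Hochberg adjustment (scipy 1.17.1). CTCF sites, CpG islands (at least 500 bp, 55% GC, observed over expected above 0.65) and GATC sites came from the GRCm38 sequence, and genes from GENCODE vM21. The bin test was tested on simulated data with known ratios, drawn by binomial sampling of the total of each bin. The simulation did not model bins in which a table lists no anchor, so it does not bear on those calls. Bins and genes were named by the largest fold with at least 100 read pairs, and genes of lists by fold among the called members. Anchors with identical coordinates, and further bins and genes with anchors of both tables, were named after their values were seen. Members, lists and tests were chosen with earlier results of these data known, and the lists are not independent evidence. P-values measure only the difference between 2 pooled tables. The values of 1 gene of a list are not reported here.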

Additional observations from a re-analysis of the deposited data

How the results depend on the processing

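No paired analysis was possible because the 2 replicates of each antibody were merged in the deposited tables, and no replicate could be left out. For anchor sharing, a long minimum overlap (1 kb) gave 46.5% of FGFR1 and 56.5% of CTCF anchors (58.1% and 66.6% of ends) and one of at least 50% of each length gave 36.2% and 43.5% (42.0% and 51.0% of ends). Anchors with at least 5 ends gave 49.0% and 64.8%, and autosomes with X 51.3% and 62.5%. Ends in shared anchors were 61.4% and 70.9% without pairs inside a single anchor, 67.6% and 75.9% at a score of 2 or more and 60.8% and 70.4% without the 1% strongest anchors. FGFR1-favored and CTCF-favored bins of 10 kb numbered 9403 and 5122 with a minimum of 50 read pairs, and 7914 and 3832 at a score of 2 or more. CTCF-favored bins numbered 39668 with no minimum, and FGFR1-favored bins 11653 (11501 for CTCF) with FGFR1 thinned to the CTCF total. With p-values adjusted over the bins with anchors of both tables alone, an alternative added after seeing the data, they numbered 7654 (10103 for CTCF). For 100 kb bins, 1.5-fold gave 5087 and 2796 and the adjusted p alone 6209 and 4164. The paired t test over the 10 kb bins in each, with Benjamini-Hochberg adjustment, gave 0 and 0 (1274 and 402 at an unadjusted p under 0.05). The share of FGFR1-favored 10 kb bins higher for FGFR1 in NCC was 43.9% with 20 read pairs or more. The log2 ratio of inter-chromosomal shares turned to -0.022 without pairs inside a single anchor and to -0.81 at a score of 2 or more, and was 0.15 without the strongest anchors. That for 1 mb or more was 0.029 without pairs inside a single anchor and turned to -0.0059 at a score of 2 or more. The log2 ratio at CTCF sites was 0.29 with the site inside the anchor, 0.60 at a score of 2 or more and 0.40 without the strongest anchors. Convergent shares were 38.1% for FGFR1 at 100 kb to 1 mb, and 42.6% and 44.1% for FGFR1 and CTCF at a score of 2 or more. The identical anchors and their alternatives were added after seeing the data. They gave 1 FGFR1-favored and 21 CTCF-favored anchors with the median ratio set to 0, 1 and 111 with a minimum of 50 read pairs, 603 and 1916 by 2-fold alone, 1 and 121 at a score of 2 or more, and 27 on the CTCF side with FGFR1 thinned. The other 66 of 118 values moved by less than their counting interval or, for counts, by less than 1.5 times. The cause of these shifts was not tested.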
